A study of Mus musculus with 6 samples.

Results

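Acod1 and the enzymes of the tricarboxylic acid (TCA) cycle were followed in mouse bone marrow-derived macrophages (BMDMs) with and without zoledronic acid (ZA), a nitrogen-containing bisphosphonate that blocks farnesyl diphosphate synthase. The 9 genes were taken by symbol from a gene table of 35434 rows, and all 9 were found and passed the filter on low values. They are Acod1, Cs, Idh2, Idh3a, Ogdh, Sdha, Sdhb, Fh1 and Mdh2. The 6 RNA-seq libraries are 3 of untreated BMDMs (Ctrl) and 3 of BMDMs given ZA for 12 h. By the study's methods the cells were bone marrow cells of C57BL/6 mice grown for 7 days with M-CSF at 10 ng/ml, so both groups share this growth factor. The paper reports that ZA itself activated TLR4 in BMDMs, and no added TLR ligand is described for either group. The study's wild-type mice were females of 6 weeks when obtained, and their age when the marrow was taken, the ZA concentration and the vehicle are not given for these libraries in the sources used here. The labels number the libraries 1 to 3 in each group but do not say whether they came from separate cultures or mice. The p-values below therefore set differences against the spread between these libraries, which may be technical.

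The TCA cycle runs in the mitochondrial matrix and oxidizes acetyl groups to carbon dioxide while it loads electron carriers for the respiratory chain. Acod1 (also called Irg1) branches off from it: the enzyme decarboxylates cis-aconitate, an intermediate of the cycle, to itaconate. In macrophages Acod1 is known as a gene with little transcript at rest that is strongly induced by TLR ligands and interferons. Itaconate is known to inhibit succinate dehydrogenase and to modify Keap1. Transcript levels, which were measured here, give neither enzyme activity nor metabolite levels.

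Each library held between 41230600 and 42155808 fragments, so depth differed little between the libraries. Levels are FPKM, fragments scaled to the length of the gene and to the size of the library. The macrophage identity was checked on 8 markers, all of which were present, with summed levels of 23460 to 27378 FPKM in Ctrl and 24320 to 27840 FPKM in ZA, mostly from Lyz2. Of these 8, 7 had a higher mean in ZA, 2 (Adgre1 and C1qa) had an unadjusted p under 0.05, and 0 passed the adjusted threshold in limma, while 1, Adgre1, passed with voom on fragments. Over all 9800 genes tested, 5579 were higher and 4221 lower in ZA, 12.3% had an unadjusted p under 0.05 and 0.367% an adjusted p under 0.05. Of 12 neutrophil and myeloid progenitor markers, 11 had a lower mean in ZA, and the sum ran from 37.6 to 53.3 FPKM in Ctrl and from 33.5 to 39.1 FPKM in ZA. Ly6g, a marker of mature neutrophils, was at 0 in all 6 libraries. Activated neutrophils also express Acod1, and these markers had lower means in ZA where that of Acod1 was higher. Of the 7 that were tested, 4 had an unadjusted p under 0.05, against 12.3% of all genes, and 0 passed the adjusted threshold (limma), nor with limma's voom on fragments. The part of these cells in the values below was not tested. The 6 fibroblast and stroma markers summed to 18.3 to 32.8 FPKM in Ctrl and 16.6 to 23.6 FPKM in ZA, with 5 of 6 lower in ZA. Markers of dendritic cells summed to less than the level of Acod1 in every library. Those of T, B and NK cells and of mast cells and basophils did so in every library but Ctrl 1. In Ctrl 1 both of these sums were above the level of Acod1. In bulk RNA, fewer cells of a type and less RNA per cell cannot be told apart.

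The sequence next to the start of Acod1 is shown because Acod1 is the member whose level differed most between the groups. It is the 215 bases before the gene's start as annotated in GENCODE vM21, GRCm38.p6 chr14:103046762-103046976, plus strand. The bases were cut from a RefSeq promoter window, and the capitals mark the 2 motif matches described next.
Acod1 upstream: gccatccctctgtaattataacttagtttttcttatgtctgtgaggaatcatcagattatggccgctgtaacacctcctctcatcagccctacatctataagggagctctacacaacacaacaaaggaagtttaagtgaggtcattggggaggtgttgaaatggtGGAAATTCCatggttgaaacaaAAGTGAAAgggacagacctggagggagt
Motifs were searched on both strands of this window. The strict NF-kB consensus, the interferon-stimulated response element, the STAT motif TTCNNNGAA, the AP-1 motif TGANTCA, the C/EBP motif TTGCNNAA, the antioxidant-response motif TGACNNNGC and TATAAA had no match. These occurred in 6.16%, 2.58%, 6.14%, 5.97%, 8.6%, 8.46% and 9.75% of 32851 RefSeq promoter windows of the same length. A further pair of motifs was added after the sequence was seen, and both matched. The IRF core AANNGAAA began 28 bases before the annotated start and occurred in 18.9% of windows. The kB-like motif GGANNNTCC, which reads the same on both strands, began 50 bases before the start. It occurred in 6.16% of windows, the same share as the strict NF-kB consensus. A match is a description of letters only, and no binding was measured.

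Acod1 had the lowest level of the 9 genes in every library, with a mean (± SD, n = 3) of 1.0 ± 0.08 FPKM in the Ctrl libraries and 2.01 ± 0.74 FPKM in the ZA libraries. In Ctrl 1, Ctrl 2 and Ctrl 3 it stood at 0.937, 1.0 and 1.09 FPKM, from 101, 108 and 118 fragments. In ZA 1, ZA 2 and ZA 3 it stood at 1.18, 2.25 and 2.59 FPKM, from 126, 242 and 283 fragments. All 3 ZA libraries were therefore above all 3 Ctrl libraries, but ZA 1 was only 1.08 times the highest Ctrl library, while ZA 2 and ZA 3 were 2.06 and 2.38 times that library. The exact 95% Poisson interval of ZA 1, 0.984 to 1.41 FPKM, overlapped that of Ctrl 3, 0.904 to 1.31 FPKM. The intervals of ZA 2 (1.97 to 2.55 FPKM) and ZA 3 (2.3 to 2.91 FPKM) lay above those of all Ctrl libraries. These intervals cover counting error only.

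**Figure D1:**
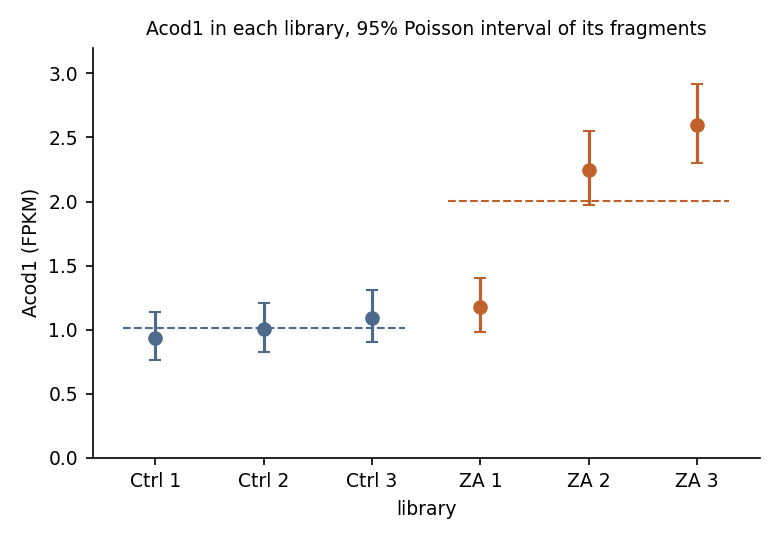
Acod1 level (FPKM, vertical axis from 0) in each of the 6 libraries, with points for libraries, bars for the exact 95% Poisson interval of the fragments and dashed lines for the group means. ZA 1 at 1.18 FPKM sits beside the Ctrl libraries (0.937 to 1.09 FPKM), whereas ZA 2 and ZA 3 sit at 2.25 and 2.59 FPKM.

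The ratio of the group means was 1.99. On the log2(FPKM + 1) scale used for the test, which understates changes of low genes, the difference between ZA and Ctrl was 0.55 (standard error 0.16, 95% interval 0.18 to 0.92). With limma the unadjusted p was 0.00924 and the adjusted p was 0.236 over the 9800 genes tested, so Acod1 was not called. Of these genes 0.367% had an adjusted p under 0.05, 12.3% had an unadjusted p under 0.05 and 18.1% had groups that did not overlap. Only 5 of the 9800 genes had a larger absolute difference than Acod1, but Acod1 ranked 379 by the size of limma's moderated statistic, which sets the difference against its standard error. ZA 3 was 2.20 times ZA 1. Without ZA 1 the difference was 0.77 and the adjusted p was 0.0163. In each of the other 12 alternatives in which Acod1 could be tested the adjusted p stayed above 0.05.

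Of the 9 genes, 0 passed the adjusted threshold in limma, and 1, Acod1, had an unadjusted p under 0.05, where the background share was 12.3%. With limma's voom on fragments the counts were 0 and 2. Acod1 was also the 1 member whose groups did not overlap, where the background share was 18.1%.

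The 8 TCA cycle enzymes differed little between the groups. Their log2 differences lay between -0.09 and 0.07, with a median of -0.0082 against 0.01 over all genes tested, and 3 were higher and 5 lower in ZA. The adjusted p-values ran from 0.475 to 0.936 (limma). The 95% intervals of the 8 differences all lay between -13.2% and 11.8% of the Ctrl level on the FPKM + 1 scale, so a change larger than that in either direction was outside the interval of every one of them. This limit describes the measurement of transcripts in these libraries, and a p above the threshold does not show that the levels were equal.

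**Figure D2:**
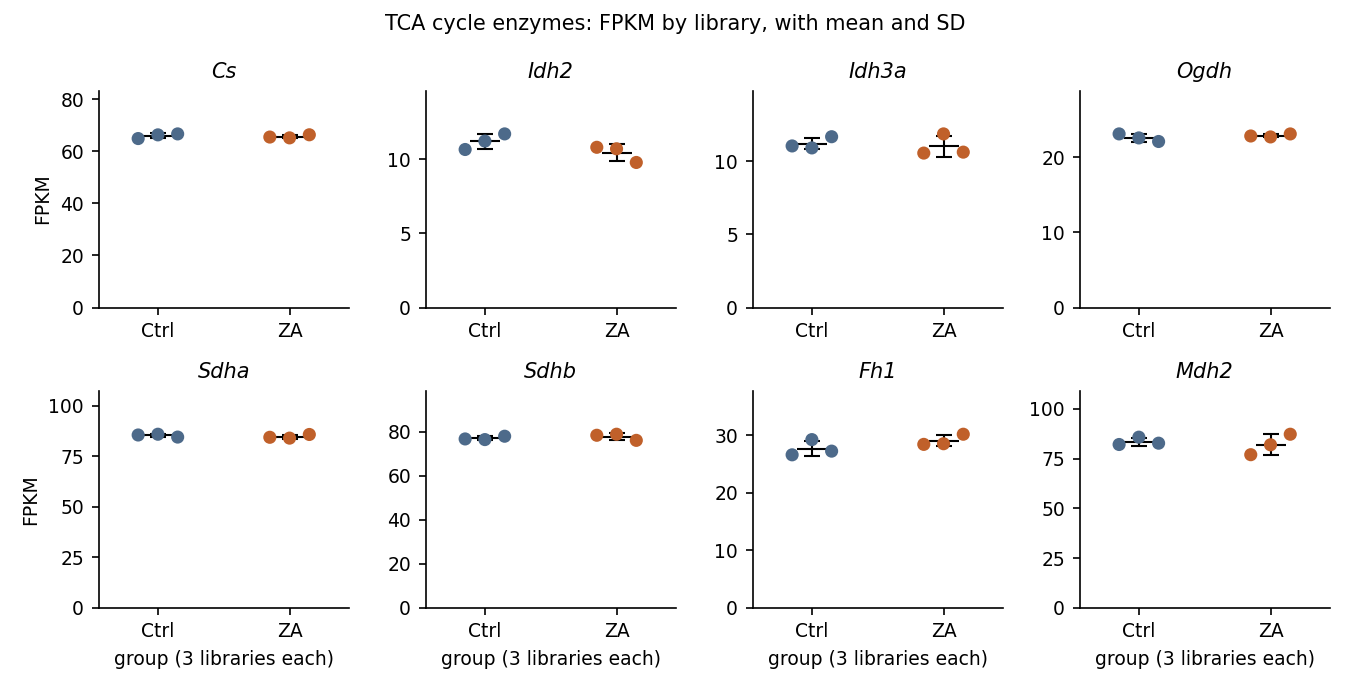
Levels of the 8 TCA cycle enzymes (FPKM, each vertical axis from 0) with 1 point per library and the mean and SD of each group. The Ctrl and ZA points overlap for all 8 genes, and the widest spread among the ZA libraries in FPKM is that of Mdh2, from 77.0 to 87.3.

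Citrate synthase (Cs) condenses acetyl-CoA with oxaloacetate and starts the cycle. It stood at 64.9, 66.4 and 66.7 FPKM in Ctrl 1 to Ctrl 3 and at 65.5, 65.2 and 66.4 FPKM in ZA 1 to ZA 3. The groups overlapped, and the highest of the 6 values was only 1.03 times the lowest. The log2 difference was -0.0066 (standard error 0.023, adjusted p = 0.936, limma).

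A pair of isocitrate dehydrogenases oxidizes isocitrate in mitochondria. Idh3a encodes the catalytic subunit of the NAD-dependent enzyme of the cycle, and stood at 11, 10.9 and 11.7 FPKM in Ctrl and 10.6, 11.9 and 10.6 FPKM in ZA. ZA 2 was the highest library and ZA 1 and ZA 3 the lowest, so the groups overlapped (log2 difference -0.0245, adjusted p = 0.877, limma). Idh2 encodes the NADP-dependent mitochondrial enzyme, and stood at 10.7, 11.2 and 11.7 FPKM in Ctrl and 10.8, 10.7 and 9.78 FPKM in ZA. ZA 3 was the lowest library and Ctrl 3 the highest, while ZA 1 and ZA 2 lay within the Ctrl range. Its log2 difference of -0.09 (standard error 0.048) was the most negative of the 9, with an unadjusted p of 0.0857 and an adjusted p of 0.475 (limma).

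Ogdh encodes the dehydrogenase subunit of the 2-oxoglutarate dehydrogenase complex, which makes succinyl-CoA. Its levels were 23.1, 22.6 and 22.1 FPKM in Ctrl and 22.9, 22.7 and 23.1 FPKM in ZA. The 3 ZA values fell inside the Ctrl range, and the log2 difference was 0.018 (adjusted p = 0.839, limma).

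Succinate dehydrogenase, complex II of the respiratory chain, is the cycle enzyme that itaconate is known to inhibit. Sdha encodes its flavoprotein, and stood at 85.5, 85.9 and 84.5 FPKM in Ctrl and 84.4, 84.0 and 85.8 FPKM in ZA. Sdhb encodes its iron-sulfur subunit, and stood at 76.8, 76.5 and 78.0 FPKM in Ctrl and 78.4, 78.9 and 76.1 FPKM in ZA. Both subunits overlapped between the groups, with log2 differences of -0.0099 and 0.014 and adjusted p-values of 0.889 and 0.860 (limma). Within a library Sdha exceeded Sdhb by a factor of 1.11 ± 0.02 (SD, n = 3) in the Ctrl group and 1.09 ± 0.03 in the ZA group.

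Fumarase (Fh1) hydrates fumarate to malate. It stood at 26.6, 29.2 and 27.2 FPKM in Ctrl and 28.4, 28.5 and 30.1 FPKM in ZA. ZA 3 was the highest library, but Ctrl 2 was above the other ZA libraries. The log2 difference of 0.07 was the largest rise among the 8 enzymes and did not pass the test (unadjusted p = 0.142, adjusted p = 0.544, limma). Mdh2 encodes the mitochondrial malate dehydrogenase that regenerates oxaloacetate. It stood at 82.1, 85.8 and 82.8 FPKM in Ctrl and 77.0, 82.0 and 87.3 FPKM in ZA. Both the lowest and the highest library were ZA libraries, and the log2 difference was -0.03 (adjusted p = 0.841, limma).

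By mean level in Ctrl the order was Sdha (85.3 FPKM), Mdh2 (83.6), Sdhb (77.1), Cs (66.0), Fh1 (27.7), Ogdh (22.6), Idh3a (11.2), Idh2 (11.2) and Acod1 (1.0). The same order held in ZA. Sdha and Mdh2, and Idh3a and Idh2, overlapped in both groups, and Mdh2 and Sdhb overlapped in ZA. Sdha was 84.8 ± 7.0 times Acod1 in Ctrl and 47.3 ± 21.0 times Acod1 in ZA (SD, n = 3). In ZA 1, ZA 2 and ZA 3 the ratio was 71.5, 37.3 and 33.1. The order depends on the gene lengths used by the authors. The length recovered from the values was 2588 bases for Acod1, close to the 2623 bases of its coding transcript in GENCODE vM21. For Idh2 it was 5556 bases, or 3.18 times the longest coding transcript in that annotation, and for Ogdh 7669 bases, or 1.86 times. For Idh3a it was 1202 bases, 0.466 times the longest coding transcript, although a whole multiple of a recovered length would fit the values as well. Ratios of the FPKM of 1 gene between libraries do not depend on this length. Differences in log2(FPKM + 1) and the filter on mean FPKM do, most of all for genes with low levels such as Acod1. Fragment numbers, and with them the Poisson intervals and voom, rest on the recovered length.

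**Figure D3:**
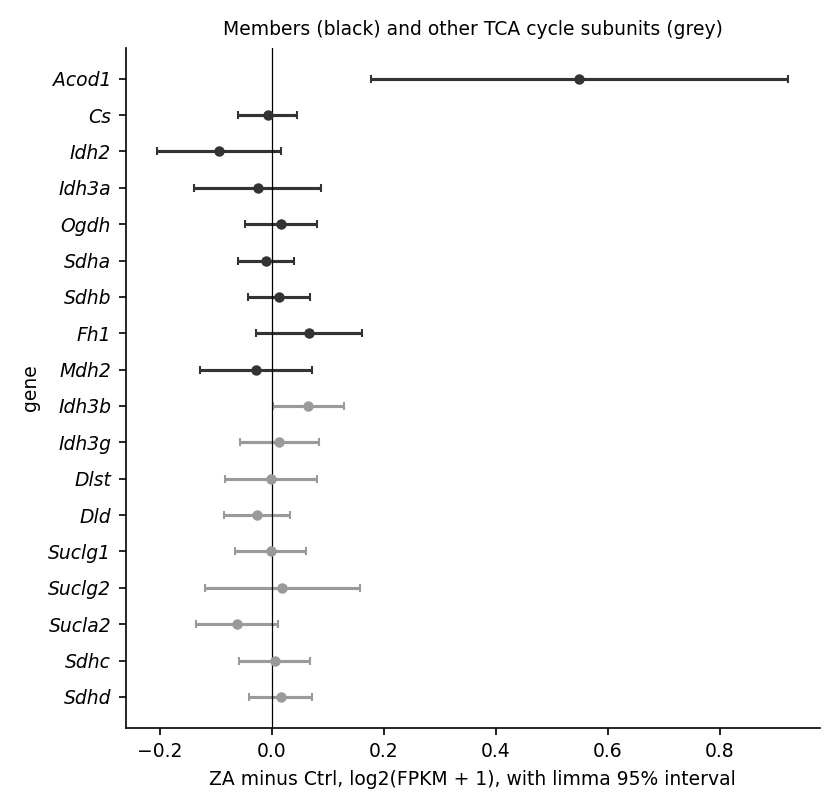
Difference between ZA and Ctrl in log2(FPKM + 1) for each gene (horizontal axis), with points for estimates and bars for limma's 95% intervals; the 9 members are black and 9 other TCA cycle subunits grey. Acod1 stands at 0.55 with a wide interval of 0.18 to 0.92, and the other 17 genes lie between -0.09 and 0.07.

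A further 9 subunits of the cycle were all tested, and as for the members listed above none passed. In ZA 5 were higher and 4 lower, 0 passed the adjusted threshold in limma, and 1 had an unadjusted p under 0.05 (0 and 0 with voom). Among all 9800 genes tested 5579 were higher in ZA and 12.3% had an unadjusted p under 0.05 (limma). Their median log2 difference was 0.0057. Idh3b, a regulatory subunit of the NAD-dependent isocitrate dehydrogenase, stood at 60.8, 63.5 and 62.9 FPKM in Ctrl and 66.2, 66.2 and 63.7 FPKM in ZA. The groups did not overlap, which held for 18.1% of all genes tested, and Ctrl 2 and ZA 3 were close to each other. The log2 difference was 0.07 (adjusted p = 0.386, limma). Sucla2, the ATP-forming beta subunit of succinyl-CoA ligase, had a mean of 17.9 ± 0.60 FPKM in Ctrl and 17.1 ± 0.08 FPKM in ZA (SD, n = 3; adjusted p = 0.475, limma). Its groups did not overlap either, but here the ZA libraries were lower. Dld, the dihydrolipoamide dehydrogenase shared by several 2-oxoacid complexes, had means of 35.4 ± 0.62 and 34.8 ± 0.33 FPKM (adjusted p = 0.721).

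Of the 4 assembly factors of succinate dehydrogenase, 1 was higher and 3 were lower in ZA, and 0 passed the adjusted threshold or had an unadjusted p under 0.05 in limma, with voom or without it. The share of all genes tested with an unadjusted p under 0.05 was 12.3% (limma). Sdhaf2, which helps to attach the flavin to Sdha, had means of 11.7 ± 0.16 FPKM in Ctrl and 11.2 ± 0.43 FPKM in ZA (adjusted p = 0.558). All its ZA libraries were below its Ctrl libraries. Sdhaf4 had means of 13.6 ± 0.63 and 14.1 ± 0.86 FPKM (adjusted p = 0.725), and Sdhaf3 of 1.8 ± 0.19 and 1.71 ± 0.05 FPKM (adjusted p = 0.792).

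Pyruvate enters the cycle through its mitochondrial carrier and the pyruvate dehydrogenase complex. Of 13 genes of this entry 11 were tested, 4 were higher and 7 lower in ZA, 0 passed the adjusted threshold in limma, and 1 had an unadjusted p under 0.05 (0 and 1 with voom). For comparison, 5579 of the 9800 genes tested were higher in ZA and 12.3% had an unadjusted p under 0.05 (limma). Pdp2, a phosphatase that activates the complex, stood at 2.56, 3.12 and 2.96 FPKM in Ctrl and 3.14, 3.61 and 3.42 FPKM in ZA. ZA 1 was just above Ctrl 2, and the log2 difference was 0.18 (adjusted p = 0.339, limma). Mpc1, a subunit of the pyruvate carrier, had means of 27.6 ± 1.4 FPKM in Ctrl and 25.8 ± 1.4 FPKM in ZA (adjusted p = 0.461). Pdk1, a kinase that inhibits the complex, had means of 7.45 ± 0.43 and 7.04 ± 0.10 FPKM (adjusted p = 0.544). Pdk4, another such kinase, was under the filter at 0.243, 0.174 and 0.194 FPKM in Ctrl and 0.0562, 0.0905 and 0.0893 FPKM in ZA. It is named here after its values were seen and was not tested.

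Genes that carry cycle intermediates out of mitochondria, use them in the cytosol or refill the cycle were higher in ZA in 9 of 11 tested cases. Over all 9800 genes tested 5579 were higher in ZA. The median log2 difference of the 11 was 0.0099, which is that of all genes (0.01). In limma 0 passed the adjusted threshold and 3 had an unadjusted p under 0.05, against 12.3% of all genes tested, and voom gave the same numbers for this list. The citrate carrier Slc25a1 stood at 44.7, 42.8 and 45.7 FPKM in Ctrl and 46.6, 48.3 and 48.0 FPKM in ZA. ATP-citrate lyase (Acly), which splits the exported citrate to acetyl-CoA in the cytosol, stood at 24.9, 24.3 and 24.9 FPKM in Ctrl and 26.1, 26.6 and 26.3 FPKM in ZA. Neither overlapped between the groups, which held for 18.1% of all genes tested. The log2 differences of 0.10 and 0.09 had adjusted p-values of 0.258 and 0.243 (limma). Got1, the cytosolic aspartate aminotransferase, stood at 39.8, 42.1 and 40.7 FPKM in Ctrl and 39.0, 38.2 and 38.4 FPKM in ZA, all 3 ZA values lying below Ctrl (log2 difference -0.08, adjusted p = 0.301, limma).

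Of 9 genes that handle itaconate or whose products it is known to act on, 8 were tested. In limma 1 passed the adjusted threshold and 5 had an unadjusted p under 0.05, of which 4 were higher and 1 was lower in ZA. Over all genes tested these shares were 0.367% and 12.3%. The list was written with earlier results of these data known, so its counts are a description only. The median log2 difference was 0.04 against 0.01 over all genes. Slc13a3, a sodium-coupled dicarboxylate carrier that can take up itaconate, rose from 1.75, 1.78 and 2.10 FPKM in Ctrl to 2.64, 2.98 and 2.91 FPKM in ZA. The groups were clearly apart, with a log2 difference of 0.42 (standard error 0.063, adjusted p = 0.0487, limma). This call lay at the edge of the threshold: it was lost without any single library and in 4 of the other alternatives, with adjusted p-values up to 0.230, while the direction held in all of them. Nfkbiz, which encodes IkB-zeta, stood at 7.62, 8.02 and 8.56 FPKM in Ctrl and 8.82, 9.36 and 10.9 FPKM in ZA (log2 difference 0.23, adjusted p = 0.249). Atf3, a stress-induced transcription factor, stood at 207, 200 and 200 FPKM in Ctrl and 189, 195 and 181 FPKM in ZA (log2 difference -0.11, adjusted p = 0.235). Both had groups that did not overlap, as had 18.1% of all genes tested. Sucnr1, the succinate receptor, was at 0 in all 6 libraries.

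The genes known to be induced together with Acod1 by TLR and interferon signals included both higher and lower ones. Of 15 listed, 10 were tested, 8 were higher and 2 lower in ZA, 0 passed the adjusted threshold in limma, and 4 had an unadjusted p under 0.05, 3 higher and 1 lower. Over all 9800 genes tested 5579 were higher in ZA and 12.3% had an unadjusted p under 0.05. This list too was written with earlier results of these data known. With voom 1 passed, which was Saa3 (adjusted p = 0.0277). Their median log2 difference was 0.11 against 0.01 over all genes. Saa3, an acute-phase apolipoprotein, stood at 2.26, 2.49 and 3.65 FPKM in Ctrl and at 6.12, 10.5 and 15.9 FPKM in ZA. As for Acod1, ZA 1 was the lowest ZA library, but here it was well above Ctrl (log2 difference 1.57, adjusted p = 0.0761, limma). Without ZA 1 the adjusted p of Saa3 was 0.0207. Il1a, the interleukin-1 alpha gene, stood at 2.55, 2.73 and 2.36 FPKM in Ctrl and at 1.93, 1.83 and 1.85 FPKM in ZA, with all 3 ZA libraries below Ctrl (adjusted p = 0.0699). Irf1, an interferon-induced transcription factor, stood at 22.9, 24.7 and 23.8 FPKM in Ctrl and 24.2, 26.4 and 28 FPKM in ZA, with overlapping groups (log2 difference 0.13, adjusted p = 0.365, limma). Il1b and Nos2 fell under the filter and were not tested. Il1b, named after its values were seen, was 0.814, 0.764 and 0.647 FPKM in Ctrl and 0.925, 1.38 and 1.36 FPKM in ZA.

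**Figure D4:**
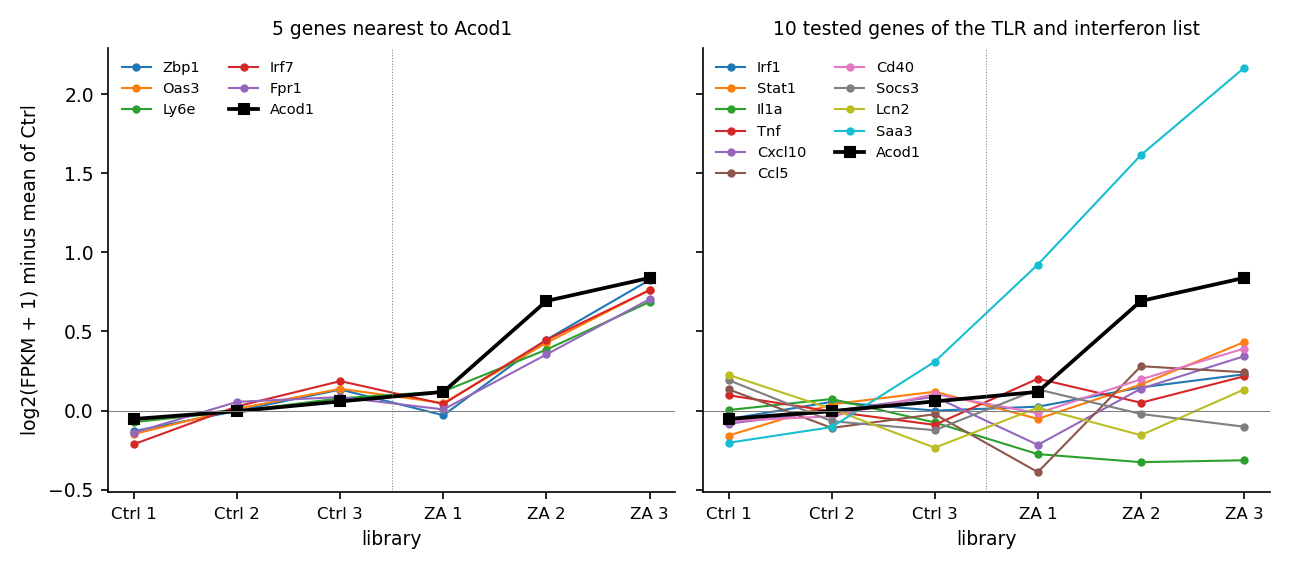
Log2(FPKM + 1) of each gene minus its own Ctrl mean (vertical axis) in the 6 libraries; Acod1 is the thick black line, the left panel shows the 5 genes nearest to it and the right panel the 10 tested genes of the TLR and interferon list. Lines join the libraries of a gene and stand for no order; the 5 nearest genes have ZA 1 near the Ctrl libraries and ZA 2 and ZA 3 above them, and Saa3 reaches the highest values while Il1a is the lowest in ZA 2 and ZA 3.

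The genes whose pattern over the 6 libraries was most like that of Acod1 were Zbp1, Oas3, Ly6e, Irf7 and Fpr1. Likeness was the root mean square difference of log2(FPKM + 1) after each gene's own mean was taken away. It was 0.105, 0.107, 0.118, 0.121 and 0.129 for these genes, against a median of 0.354 over the 9791 genes compared. The root mean square of the Acod1 pattern about its own mean was also 0.354. A gene that did not vary would thus lie about as far from Acod1 as the median gene. Irf7 stood at 29.2, 34.7 and 38.8 FPKM in Ctrl and 35.0, 46.7 and 58.3 FPKM in ZA. Fpr1 stood at 3.46, 4.11 and 4.22 FPKM in Ctrl and 3.94, 5.29 and 7.01 FPKM in ZA. In both of these genes ZA 1 lay within the Ctrl range and ZA 2 and ZA 3 above it. In Ly6e ZA 1, at 79.9 FPKM, was above the highest Ctrl library, at 77.5 FPKM. The 5 genes were picked by their likeness over these same libraries, so a shared pattern was set by the choice. The adjusted p-values of the 5 genes ran from 0.244 for Ly6e to 0.413 for Zbp1 in limma without a replicate block.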

How the data were processed

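RNA-seq libraries of 3 Ctrl and 3 ZA samples of BMDMs were analysed. The authors deposited 1 table of FPKM values, another normalized unit than counts, made from 150 bp paired-end reads. The labels name build mm9, and the aligner and counter are not given in the sources used here. The deposited table had lost most separators between its columns, so the run-together cells were separated again, using how the numbers are written and the fact that every FPKM stands for whole fragments. Of 35434 rows, 35364 were restored and 70 were left out. All 11 intact rows were restored identically, and of 3000 simulated rows 2998 were exact and 0 wrong. Fragments recovered this way made up 99.7% of each library total.

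Log2(FPKM + 1) was tested with limma 3.58.1 (moderated statistic with trend, two-sided) in R 4.3.3, with Benjamini-Hochberg adjustment over the 9800 genes with a mean of at least 1 FPKM. The methods name no test for these data. On simulated data 200 of 200 genes changed by 1 on the log2 scale were called, with the same dispersion given to every gene. How often smaller differences, or differences of genes with a wider spread between libraries, would be called was not tested. The members, lists and motifs were chosen with earlier results of these data known. All members were named, and in each list the 3 genes with the largest statistic and any with an adjusted p under 0.05. Alternatives were another pseudocount, filters, scalings, no trend, a replicate block, voom on fragments and leaving out each library. Promoter windows came from RefSeq on GRCm38.p6, and no coordinate was taken across builds. For the list of other cycle subunits, 1 gene is not reported here.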

Additional observations from a re-analysis of the deposited data

How the results depend on the processing

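Over all genes tested, 36 were called as reported, 37 with a pseudocount of 0.1, 42 with a minimum mean of 5 FPKM and 29 after centring on the median. The count moved to 1 without a filter, 20 with quantile normalization, 1 without the trend and 132 with voom on fragments; the cause was not tested. Leaving out each library gave 0 to 25 genes, with 0 without ZA 2 (limma), where 973 had an unadjusted p under 0.05; voom was not run without ZA 2. The labels do not say whether libraries of the same number belong together. The correlations of their deviations from the group means were 0.284, 0.0393 and 0.280 for numbers 1, 2 and 3. Between Ctrl and ZA libraries of different numbers they ran from -0.2975 to 0.0334. Libraries of the same number were thus the most alike, though barely for number 2, and whether the numbers pair the libraries was not settled. With the replicate block 78 genes were called, 0 of the 9 members, and the adjusted p of Acod1 was 0.0782. The block also brought Saa3 (adjusted p = 0.0120) and Irf7 (adjusted p = 0.0360) under the threshold.

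The number of the 9 members with an adjusted p under 0.05 stayed at 0, except that leaving out each library gave 0 to 1, the 1 being Acod1 without ZA 1. The number with an unadjusted p under 0.05 was 0 at a minimum mean of 5 FPKM, which removed Acod1 from the test, and 2 with voom on fragments, and 1 to 2 when a library was left out. The log2 difference of Acod1 ran from 0.41 to 0.77 when a library was left out and was 0.92 with voom, which adds no 1 to each value. Differences close to 0 changed sign in 3 enzymes when a library was left out: Cs ran from -0.0181 to 0.0012, Idh3a from -0.0748 to 0.0028 and Mdh2 from -0.0719 to 0.0175. The other members kept their sign in all alternatives run. Acod1 had the fewest fragments of the 9 members, 101 to 283 a library, but the spread between the ZA libraries was wider than counting error, since the Poisson intervals of ZA 1 and ZA 3 did not overlap. Without ZA 1 the standard error of its difference was 0.070 in place of 0.16.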
